A study of Mus musculus with 18 samples.

Results

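The ovary of an LH-hypersecreting CF-1 mouse that had been given human chorionic gonadotropin (hCG) was compared with the ovary of a CF-1 wild-type mouse of the same age, 5 months. These conditions are represented by 4 of the 18 arrays of the series, 1 array of chip A and 1 of chip B on either side, chosen by their labels alone. The hCG-treated ovary carried the LHCTP transgene and is described in the labels as a luteoma. The dose and schedule of the hCG, the number of animals and any pooling are not stated in the labels. CF-1 is an outbred stock, so the donors of these RNAs need not share a genotype outside the transgene.

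For reference, the series also holds wild-type ovaries from CF-1 at 2 months and from F1 mice of the cross CF-1xC57BL/6, called hybrids here, at 2 and at 5 months. These 3 conditions are called the other wild types below. The 4 untreated transgenic (LHCTP) conditions are cystic ovaries at 2 months in either strain and, at 5 months, a hybrid luteoma and a granulosa cell tumour of CF-1. A label of the tumour's chip B array gives 2 months where its other labels give 5. Each of the 9 conditions was hybridised once per chip type.

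Luteinizing hormone (LH) acts through a receptor on theca cells, on mature granulosa cells and on the corpus luteum. A surge of LH starts ovulation and turns granulosa cells into luteal cells, which stop dividing and make progesterone. hCG binds the same receptor and lasts longer in the blood, so that an injection imitates a surge. In the LHCTP mouse a chimeric LH beta subunit, extended by the carboxy-terminal peptide of hCG, is made in pituitary gonadotropes under the bovine alpha subunit promoter, so LH is raised at all times and the ovary is not itself the site of the transgene. The study is known to have asked whether surge-like hCG alters the fate of granulosa cells that otherwise form tumours. A wild-type ovary at 5 months is the comparison used here, and an untreated transgenic ovary of the same strain and age is the tumour.

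The deposited values are intensities, which were scaled to a common level within each chip type. Values were raised to a floor, 184 units for chip A and 291 for chip B, before log2 differences were taken, and the detection limit was 2 floors. A difference against a value under the floor is given as at least that size. With 1 array a side there is no error estimate and no test, so a difference of at least 3-fold was used as a rule of size, with the brighter array at the detection limit. The spread over the 4 wild types, which differ in strain and age, is given beside the values as the nearest measure of variation. In whole ovaries, fewer cells of a type and less RNA per cell cannot be told apart.

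Between the hCG-treated ovary and the CF-1 wild type, 121 probe sets passed 3-fold on the higher side and 112 on the lower. These are 1.89% and 1.75% of the 6408 probe sets tested, 3.64% in all. The higher probe sets carried 90 named genes and the lower 81, with 31 and 30 probe sets that have no single gene name. The median of all log2 differences was 0. The median size among the higher was 3.66-fold and among the lower 3.70-fold. The rule cut through a dense range, since 35 higher probe sets lay between 3.0 and 3.3-fold and 50 between 2.7 and 3.0-fold. Nearest to the rule were Sct, the gene of secretin, 3.0004-fold higher and counted, and Mrpl9, of the mitochondrial ribosome, 2.99-fold higher and not counted.

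**Figure D1:**
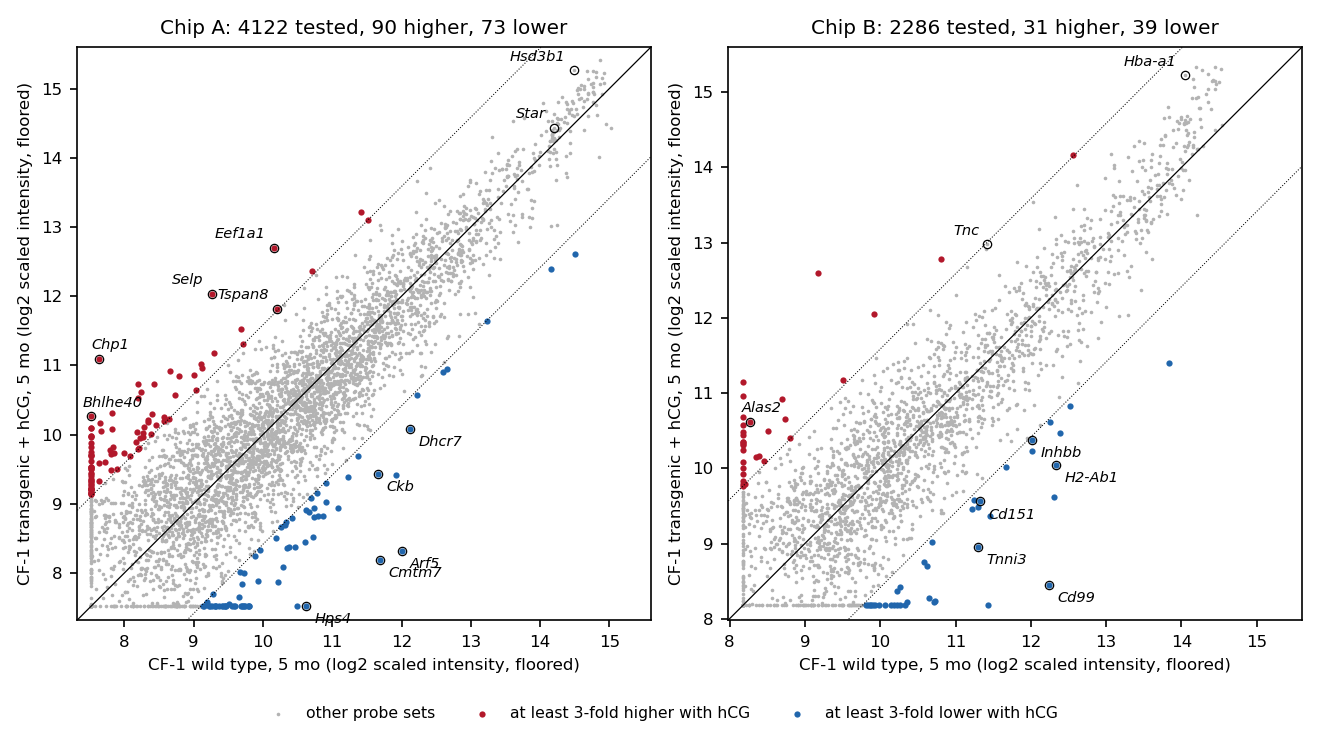
Each point is a probe set, placed by its log2 scaled intensity in the CF-1 wild type at 5 months (horizontal) and in the hCG-treated CF-1 transgenic ovary (vertical) for chip A (left) and chip B (right). Solid lines mark equality and dotted lines 3-fold differences. Of 4122 probe sets on chip A, 90 (2.18%) were higher and 73 (1.77%) lower, and of 2286 on chip B, 31 (1.36%) were higher and 39 (1.71%) lower. Star and Hsd3b1 lie at the bright end inside the lines, while Chp1, Selp and Alas2 lie above and Cd99, Arf5 and Cmtm7 below.

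The same rule between wild-type arrays gave counts of like size when the CF-1 wild type at 5 months was in the pair. It passed 3-fold in either direction at 191 probe sets (2.98%) against CF-1 at 2 months. It did so at 214 (3.34%) against the hybrid at 5 months and at 248 (3.87%) against the hybrid at 2 months. Pairs among the other wild types gave 62 (0.968%), 73 (1.14%) and 94 (1.47%). The hCG-treated ovary gave 146 (2.28%) against CF-1 at 2 months, 199 (3.11%) against the hybrid at 5 months and 191 (2.98%) against the hybrid at 2 months. The count of 233 between the hCG-treated ovary and the CF-1 wild type at 5 months thus lay within the range of 62 to 248 found between wild types.

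**Figure D2:**
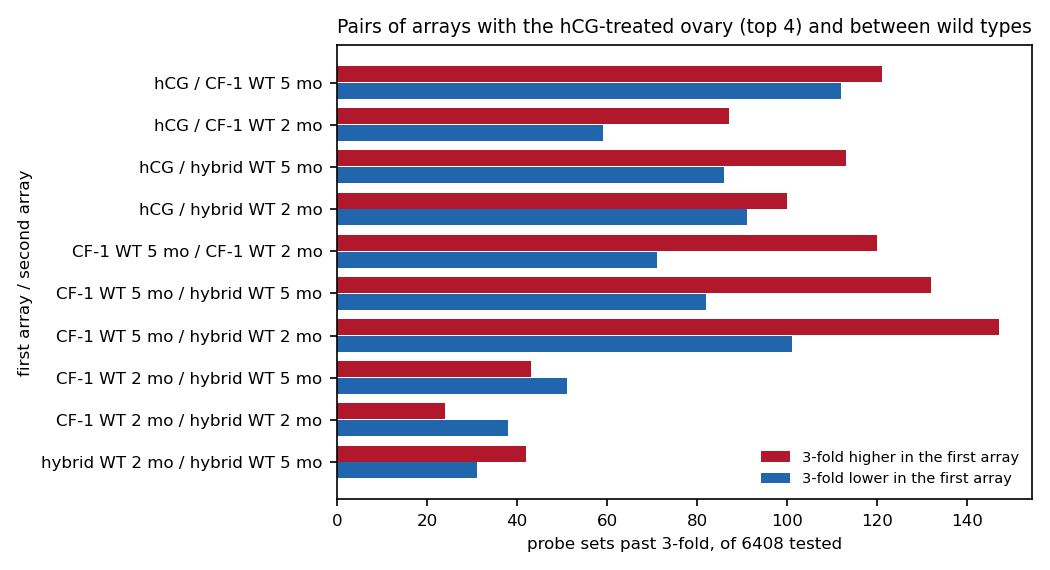
Bars give how many probe sets passed 3-fold, higher (red) or lower (blue), in the first array of each pair, of 6408 tested. The top 4 pairs set the hCG-treated ovary against each wild type and the other 6 are between wild types. Pairs that contain the CF-1 wild type at 5 months (121 and 112 against the hCG-treated ovary) reach higher counts than the 3 pairs among the other wild types.

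The CF-1 wild type at 5 months also shared a profile with the tumour and the hybrid luteoma on a control. On chip A the opposite-strand control of BioDn, which is not meant to match a labelled target, read 768, 782 and 812 units on these 3 arrays, 387 on the hCG-treated array and 194 to 369 on the others. On chip B it read 531, 533 and 719, against 72.0 on the hCG-treated array and 51.0 to 330 on the others. The opposite-strand control of BioB read -568, -483 and -462 on these 3 arrays of chip A and -366 to -120 on all others. On chip B it read -228, -247 and -226, within the range of -268 to 7.74 of all others. Of the 121 higher probe sets, 46 had these 3 arrays below all 6 others, against 10.3% of all probe sets tested. Of the 112 lower ones, 38 had them above all others, 33.9% against 8.35% of all. The CF-1 wild type is both in this profile and in the rule that chose these probe sets, so the choice itself raises these shares and nothing is read from them. The part of this profile in the differences below was not tested. On the hCG-treated array the ratio of the 3-prime to the 5-prime Gapdh control was the highest of the 9 on either chip, at 1.35 and 1.30 against 0.900 and 0.927 in the CF-1 wild type. For the beta-actin control the ratio was lower than in that wild type, at 2.22 against 2.58 on chip A and 2.17 against 2.58 on chip B.

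Against the other wild types, most calls kept their sign but shrank. Of the 121 higher probe sets, 99 were also higher than each of the other wild types, 56 were at least 2-fold higher than their mean, and the median log2 difference went from 1.87 to 0.95. Of the 112 lower ones, 72 were below each, 54 were at least 2-fold below the mean, and the median went from -1.89 to -0.95. Of all probe sets tested, 22.2% were above all 4 wild types and 23.9% below. The value of the hCG-treated array is both in the rule that chose these probe sets and in these differences. The choice itself thus bears on the kept signs and the smaller medians, and nothing is read from them. Genes with more than 1 probe set gave a further view. Of 20 higher genes with another probe set, 3 had it at least 1.5-fold higher too, and for 8 every other probe set pointed the other way. Of 21 lower genes, 9 had another at least 1.5-fold lower and 12 had none, and for 4 every other probe set pointed the other way.

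The genes furthest above the CF-1 wild type were of mixed function. Chp1, a calcineurin-like calcium-binding protein, read 2190 units against 200, 10.98-fold higher, with 399 to 590 in the other wild types. Selp, the P-selectin that endothelium and platelets display to catch leukocytes, read 4197 against 614, 6.84-fold higher. It also read 853 to 3059 in the other wild types, so the CF-1 wild type was the low array. Bhlhe40, a repressor in the circadian and hypoxia response, read 1235 against a value under the floor, at least 6.72-fold higher, and no other array exceeded 400 units. Its chip B probe set read 1682 against 1135 and was 1.48-fold higher.

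Several of the next genes were high in the other wild types as well, as Selp was. Eef1a1, translation elongation factor 1 alpha, read 6659 against 1147 on the probe set with the largest difference. The other wild types read 4130 to 6630 there, and the hybrid luteoma and the tumour 1309 and 1015, the profile of 3 arrays described above. Its other probe sets differed by log2 -0.40, 0.36 and 1.02. Dctn6, a dynactin subunit, read 1148 against 200, with 917 to 1297 in the other wild types. Pak4, a kinase of the actin cytoskeleton, read 1471 against 295, with 827 to 1270.

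A second group was high in the hCG-treated ovary against all wild types. Sult2b1, a sulfotransferase for cholesterol and pregnenolone, read 1014 units and was under the floor in the CF-1 wild type, with at most 356 in the other wild types. Map3k11, a kinase upstream of JNK, read 1012 and was also under the floor in the CF-1 wild type, with at most 297 in the other wild types. Both had high values in the cystic hybrid ovary too, 650 and 1012. Sf3b1, a splicing factor, read 1266 against 226 but 955 in the hybrid wild type at 5 months, and its bright probe set read 4343 against 4068.

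The other genes of the 15 furthest above were Josd2, Prap1, Klf2, Zfp36l1, Etf1 and Alas2. Klf2, a transcription factor of quiescent endothelium, read 1002 against a value under the floor and 446 to 646 in the other wild types. Zfp36l1, an RNA-binding protein that speeds mRNA decay, read 1061 against 203 and 464 to 631. Prap1, a secreted protein of uterine and gut epithelium, read 1098 against a value under the floor, but 1916 in the CF-1 wild type at 2 months. Etf1, a translation release factor, read 938 against a value under the floor, while its 3 other probe sets differed by log2 -0.40, -0.33 and 0.04. Josd2, a deubiquitinase, read 1099 against a value under the floor, and 1029 against 910 on a second probe set.

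The lower side was led by Cd99, Arf5 and Cmtm7. Cd99, an adhesion protein of leukocytes and endothelium, read 349 units against 4851, 13.88-fold lower, with 846 to 2451 in the other wild types. A second Cd99 probe set read 4148 against 9224. Arf5, a small GTPase of the Golgi, read 320 against 4100, 12.82-fold lower, with 1024 to 2177 in the other wild types. Cmtm7, a membrane protein of B cells, read 293 against 3316, 11.31-fold lower, with 1141 to 1773. The hCG-treated array was the lowest of the 9 for these 3 genes, and the CF-1 wild type the highest.

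Further down were genes low with hCG against every wild type. Hps4, a subunit of a complex that forms lysosome-related organelles, was under the floor with hCG and read 1583 in the CF-1 wild type, at least 8.61-fold lower, with 690 to 980 in the other wild types. Ube2s, the chain-extending E2 enzyme of the anaphase-promoting complex, read 685 against 3895, with 2576 to 2803. Tnni3, cardiac troponin I, read 498 against 2517, with 1837 to 2582. Nnat, an imprinted membrane protein, was under the floor against 858 and 864 to 1131, and read 4180 in the tumour.

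For other leading low genes the CF-1 wild type was the high array. Col4a4, a basement membrane collagen chain, read 297 with hCG, 1679 in the CF-1 wild type and 286 to 300 in the other wild types. H2-Ab1, an MHC class II beta chain, read 1058 against 5179 and 787 to 1076. Csk, a kinase that restrains Src, was under the floor against 888 and at most 277, while its 2 brighter probe sets differed by log2 -0.41 and -0.26. Cd300c2, a myeloid receptor, read 367 against 1693 and at most 111. Mphosph9, a protein phosphorylated in mitosis, was under the floor against 1442, with at most 409. Myo6, a myosin motor, read 273 against 1255 and 436 to 623, but 561 against 629 on a second probe set. Fgf15, a growth factor of the gut, read 233 against 1187, and the hybrid wild type at 2 months also read 1184.

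A stricter rule required the hCG-treated array to stand 3-fold beyond the CF-1 wild type and at least 2-fold beyond each of the other wild types. It left 26 probe sets higher and 29 lower, 0.406% and 0.453% of those tested. The set carried 16 named higher and 20 named lower genes.

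**Figure D3:**
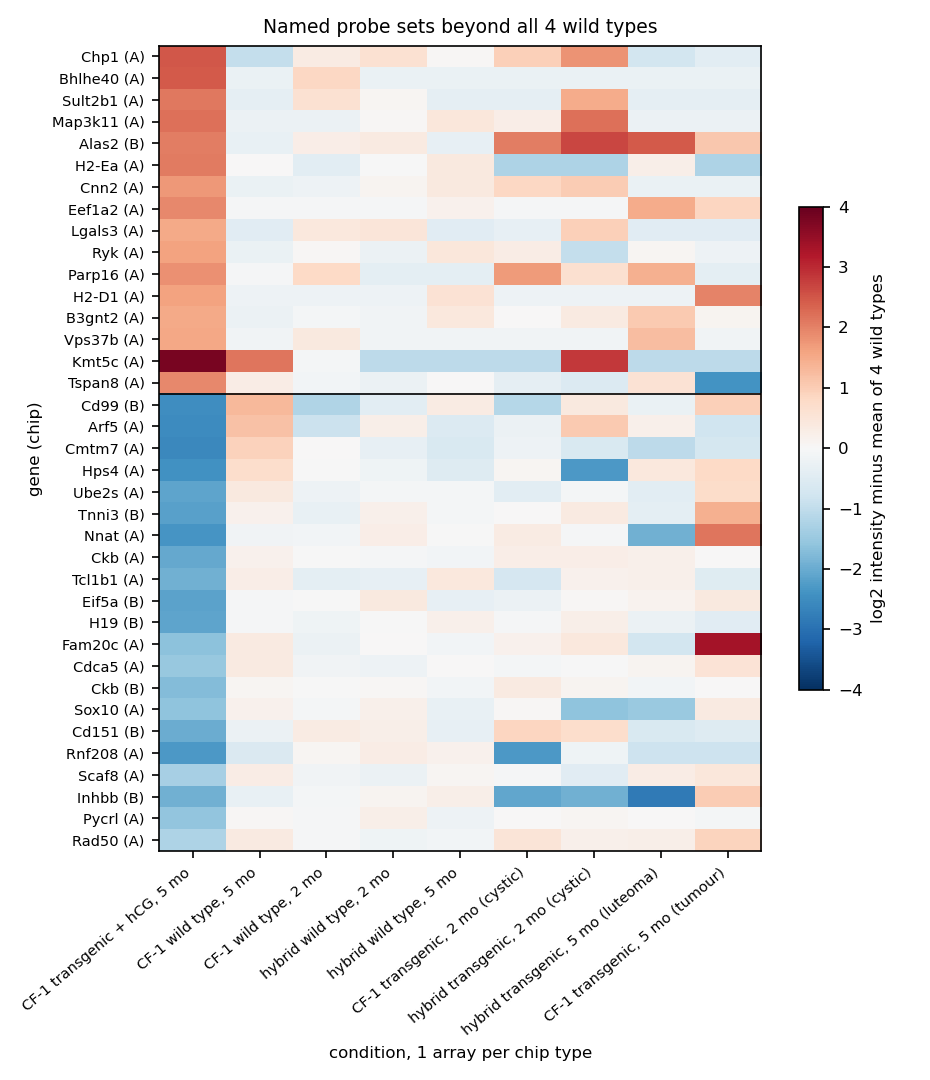
Rows are the named probe sets that stood beyond all 4 wild types (chip in parentheses), higher with hCG above the line and lower below it. Columns are the 9 conditions, and the colour gives log2 intensity minus the mean of the 4 wild types. Choice by the rule fixes the first 5 columns. The other 4 columns show Alas2 high in every untreated transgenic ovary, and Inhbb low in the cystic ovaries and the hybrid luteoma but high in the tumour.

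Alas2, the erythroid enzyme that starts heme synthesis, was high in the transgenic ovaries as a whole. It read 1576 units with hCG and 306 to 485 in the 4 wild types. The untreated transgenic ovaries read 798 to 2443, with the lowest value in the tumour, and did not overlap with the wild types. A chip B probe set with no gene name had a like pattern outside the tumour. It read 6184 with hCG, 580 to 907 in the 4 wild types, 5293 to 15145 in the cystic ovaries and the hybrid luteoma, and was under the floor in the tumour.

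Inhbb, which encodes the beta B subunit of inhibin and activin, was the ovarian hormone gene of this set. It read 1331 units with hCG, 4135 in the CF-1 wild type and 4839 to 5987 in the other wild types, 3.11-fold lower than the former. The cystic ovaries read 1190 and 1331 and the hybrid luteoma 711, so these 4 transgenic ovaries all lay below every wild type. The tumour read 10279, the highest of the 9.

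Genes high in the hCG-treated ovary alone among the 9 arrays were few. The rule of 3-fold beyond the CF-1 wild type and 2-fold beyond every other array left 4 higher and 21 lower probe sets, 0.0624% and 0.328%. The filter bears on this split, because a probe set had to reach the detection limit on 2 arrays to be tested. Without that filter the counts were 16 higher and 21 lower. The 4 higher genes were Bhlhe40, H2-Ea, Ryk and Tspan8. H2-Ea, an MHC class II alpha chain, read 1850 units against 442 and 323 to 575 in the other wild types. Ryk, a Wnt-binding receptor, read 2327 against 628 and 636 to 1039. Tspan8, a tetraspanin, read 3612 against 1180 and 826 to 983.

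The genes low in the hCG-treated ovary alone included Ckb, which was past 3-fold on both chips. Ckb, brain-type creatine kinase, read 693 units on chip A against 3224 in the CF-1 wild type and 2680 to 3458 in the 7 other conditions. On chip B it read 716 against 2515 and 2224 to 3045. The 8 other arrays lay close together on either chip, and the hCG-treated array lay apart. Eif5a, a translation factor, read 659 against 2814 and 2319 to 3837 in the 7 others. H19, an imprinted noncoding RNA, was under the floor against 1223 and 915 to 1476, while its second probe set read 537 against 1335.

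Others of these 13 named genes were Tcl1b1, Cdca5, Pycrl and Rad50. Cdca5, the cohesin protector sororin, read 522 units against 1928 and 1283 to 2184 in the 7 other conditions. Pycrl, an enzyme of proline synthesis, read 445 against 1375 and 1150 to 1571, but its second probe set read 1938 against 1393. Rad50, a DNA double-strand break repair protein, read 406 against 1228 and 849 to 1778. Cd151, a tetraspanin, read 755 against 2566 on chip B, but its chip A probe set read 8901 against 7335 and did not show the difference.

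Other genes of the stricter set were dim on the side where they were low. Lgals3, galectin-3, read 723 units against a value under the floor on a dim probe set, while a bright one on chip B read 9948 against 11025. H2-D1, an MHC class I chain, read 644 against a value under the floor on a dim probe set, while 3 bright ones differed by log2 -0.89 to -1.21. Cnn2, Eef1a2, Parp16, B3gnt2 and Vps37b read between 589 and 1046 units. Kmt5c, a histone methyltransferase, read 5275 against 1675, with 362 at most in the other wild types and 2695 in the cystic hybrid ovary, but 1261 against 1119 on a second probe set.

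Genes for the steps from cholesterol to progesterone read above all 4 wild types in the hCG-treated ovary, while other genes of the steroidogenesis list went either way. Star, which carries cholesterol into the mitochondrion, read 22158 units against 18850 in the CF-1 wild type and 11263 to 17465 in the other wild types. Cyp11a1, which cuts the cholesterol side chain, read 32422 against 23730 and 13544 to 20595. Hsd3b1, which makes progesterone from pregnenolone, read 39328 against 22977 and 3612 to 21960. These 3 genes were highest in the hCG-treated ovary among the 9 arrays, by log2 differences of 0.23, 0.45 and 0.78 over the CF-1 wild type, none of which reached 3-fold. The hCG-treated array also had the brightest top value of the 9 on chip A, 43630 scaled units against 33432 in the CF-1 wild type. On chip B its top value was 41486 against 23789 in the CF-1 wild type, with 55939 in the cystic hybrid ovary. The part of these top values in the differences of bright genes was not tested. This holds for these steroid genes and for Gpx3, Prdx1, Ctsl and Hba-a1 of chip B, described below.

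Cyp17a1, the theca enzyme that leads to androgens, read 8023 units against 3968 and 4373 to 6784, and 9578 in the hybrid luteoma. Fdx1, the electron carrier of Cyp11a1, read 38119 against 31002. Hsd17b1, the granulosa enzyme that makes estradiol from estrone, went the other way, at 2547 against 4478 and 4547 to 5765, the lowest of the 9. Nr5a2, a nuclear receptor of granulosa and luteal cells, read 6019 against 10326 on its brightest probe set, while its 3 other probe sets differed by log2 -0.64, 0.05 and 0.02. Nr5a1, the nuclear receptor that drives steroid genes, read 3300 against 5080 and 3039 to 4880.

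Of 20 genes listed for steroidogenesis, 9 were measured. Of these, 3 were higher and 3 lower at 1.5-fold, and the median log2 difference was 0.30. With quantile normalisation this median was 0.11, and with loess 0.09. Over all probe sets tested, 18.4% passed 1.5-fold upward and 17.8% downward. Against the mean of the other wild types the median of the 9 genes was 0.53, and 5 of the 9 lay above all 4 wild types, where 22.2% of all probe sets did. Lhcgr, the LH receptor, and Prlr, Akr1c18, Cyp19a1 and Hsd17b7 were not analysed here.

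**Figure D4:**
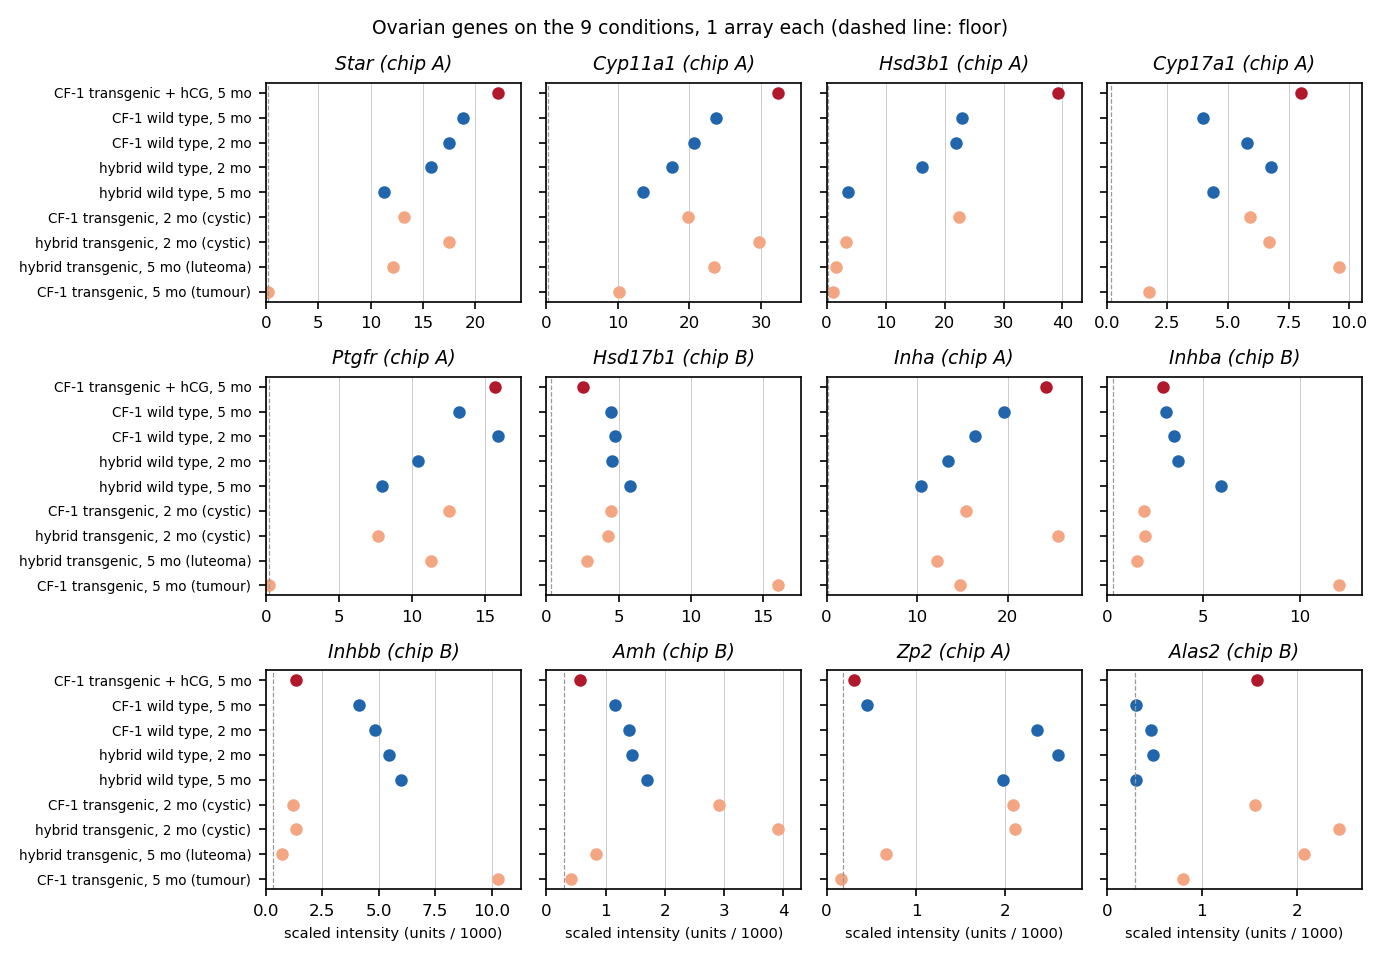
Scaled intensity (units divided by 1000) on the 9 conditions, 1 array each, for genes of steroid synthesis, the inhibin family, the oocyte and heme synthesis, with the hCG-treated ovary in red, wild types in blue and untreated transgenic ovaries in orange. The dashed line is the floor. Star, Cyp11a1 and Hsd3b1 are highest with hCG, Hsd17b1 is lowest with hCG, and Star and Ptgfr are near the floor in the tumour.

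Luteal genes gave no common direction within the pair. Ptgfr, the receptor through which prostaglandin F2 alpha ends luteal life, read 15676 units against 13224, with 7952 to 15874 in the other wild types. Star and Ptgfr were well above the detection limit in the ovary labelled a luteoma, whereas the tumour read 188 and 217. Scarb1, which takes up cholesterol from HDL, read 13474 against 21406, with 9442 to 15378. Timp3, an inhibitor of matrix proteases, read 4503 against 2932 and 2895 to 3081. Bhmt read 320 against 938 and 761 to 4043. Of 16 listed luteal genes 6 were measured, with 1 higher and 2 lower at 1.5-fold and a median log2 difference of -0.01.

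Cholesterol synthesis gave no common direction. Dhcr7, the last enzyme of the pathway, read 1083 units against 4468, 4.12-fold lower, but 512 to 1806 in the other wild types. Hmgcs1, an early enzyme, read 14048 against 14675 on its bright probe set, and 1930 against 405 on a dim probe set that follows the profile of 3 arrays. Idi1 read 3622 against 2024 and Mvd 426 against a value under the floor. Of 10 measured genes, 2 were higher and 3 lower at 1.5-fold, with a median of -0.15.

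Granulosa genes lay on both sides of the wild type, 7 higher and 8 lower in sign. The inhibin alpha subunit gene Inha, which luteal cells also express, read 24219 units against 19568 and 10402 to 16336. The beta A subunit gene Inhba read 2909 against 3080 and 3480 to 5891. Fst, the follistatin that binds activin, read 1159 against 1045 and 1198 to 2234. Of these inhibin and activin genes, the beta B subunit alone was past 3-fold.

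Several granulosa genes lay below all 4 wild types without passing 3-fold. Amh, made by granulosa cells of small growing follicles, read 576 units against 1157 and 1398 to 1704. Esr2, the granulosa estrogen receptor, read 619 against 1147 and 1386 to 1535. Gata4 read 282 against 679 and 614 to 816, and Wt1 read 3611 against 5767 and 4429 to 5304. A second Wt1 probe set, at 920 against 914, did not differ.

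Others were higher, and 2 of them passed 3-fold. Ccnd2, the cyclin of dividing granulosa cells, read 1256 against 337, 3.73-fold higher, but the other wild types read 376 to 1882. Kitl, the Kit ligand, read 1125 against 350, 3.21-fold higher, with 510 to 774. Igf1 read 1477 against 803 and 194 to 639, the highest of the 9. In all, 15 of 24 listed genes were measured, 3 higher and 7 lower at 1.5-fold, with a median of -0.08. Below all 4 wild types lay 8 of the 15, 53.3%, where 23.9% of all probe sets did.

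Oocyte genes were low in both members of the pair. Zp2, a zona pellucida glycoprotein, read 309 units with hCG and 447 in the CF-1 wild type, against 1977 to 2595 in the other wild types. Zp3 read 304 and 398 against 1670 to 1786. Gdf9, the growth factor the oocyte sends to its granulosa cells, read 1828 and 1782 against 3243 to 3790. Bcl2l10 read 832 and 519 against 2455 to 2960. The median log2 difference of 7 measured genes was 0 within the pair and -1.19 against the mean of the other wild types. All 7 were at least 1.5-fold lower than that mean, where 13.4% of all probe sets were. The CF-1 wild type was the lowest wild type for 7 of 7, as it was for 36.2% of all probe sets.

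Of 8 measured smooth muscle genes, 5 were at least 1.5-fold lower than the mean of the other wild types. Of all probe sets tested, 13.4% were. Acta2, smooth muscle actin, read 11118 units with hCG and 11105 in the CF-1 wild type, against 20303 to 22704 in the other wild types. Mylk, the myosin light chain kinase, read 3150 and 2892 against 5318 to 6636. Tagln was lower still with hCG, at 3358 against 5633 and 8992 to 10992. Tpm1, a tropomyosin, differed from these, at 11112 and 10793 against 9039 to 10337, and Des, desmin, read 435 and 757 against 439 to 839. The median of the list was 0.02 within the pair and -0.84 against the other wild types.

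Keratins and oviduct genes, which mark surface epithelium or adhering oviduct, had no common direction within the pair. Krt18 read 1448 units in both, against 1805 to 2327 in the other wild types. Krt8 read 1663 and 1810 against 2685 to 3180, and Ovgp1, the oviduct glycoprotein, 16720 and 12352 against 9338 to 19169. S100g, a calcium-binding protein of oviduct and uterus, read 1699 against 344, 4.94-fold higher, with 1053 to 1381 in the other wild types and under the floor in every untreated transgenic ovary. Foxj1, the factor of motile cilia, read 839 against a value under the floor, at least 4.56-fold higher, with 513 to 1025.

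Upk3b, a uroplakin of mesothelium, read 1134 units against 2627 and 1188 to 1578, and Dsp, desmoplakin, 1386 against 2961 and 1977 to 3213. In these epithelial genes the median was 0 within the pair over 21 measured genes, with 4 higher and 3 lower at 1.5-fold. Against the other wild types it was -0.54. Wfdc18, a secreted protease inhibitor outside the list, was higher on both of its chip B probe sets, at 4228 against 972 and 4420 against 1625. The other wild types read 1234 to 3466 on the former. Ovgp1 and S100g mark oviduct and not ovary, and their part in the differences was not tested.

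Macrophage and antigen presentation genes were lower than in the CF-1 wild type as a group. Of 18 measured genes, 12 were at least 1.5-fold lower and 0 at least 1.5-fold higher, with a median of -0.75. Of all probe sets tested, 17.8% were lower and 18.4% higher by that measure. Ctss, the lysosomal protease that prepares MHC class II, read 3206 units against 9627, 3.003-fold lower. C1qa, a complement component, read 1521 against 4466, and Cd68, a macrophage lysosome protein, 1132 against 2690. Lyz2, lysozyme, read 22153 against 33432.

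The CF-1 wild type was the highest wild type for all 18 measured macrophage genes, as it was for 31.8% of all probe sets. Against the mean of the other wild types the hCG-treated ovary had 8 of the 18 at least 1.5-fold higher and 0 lower, with a median of 0.48. Of all probe sets tested, 12.3% were higher and 13.4% lower by that measure. H2-Ab1 changed from log2 -2.29 to 0.19 and Ctss from -1.59 to 0.69. Lyz2 read 8991 to 12158, Laptm5 906 to 955 and Mpeg1 827 to 906 in the other wild types, against 22153, 1834 and 2209 with hCG. The direction of the group thus depended on which wild type served as the reference.

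**Figure D5:**
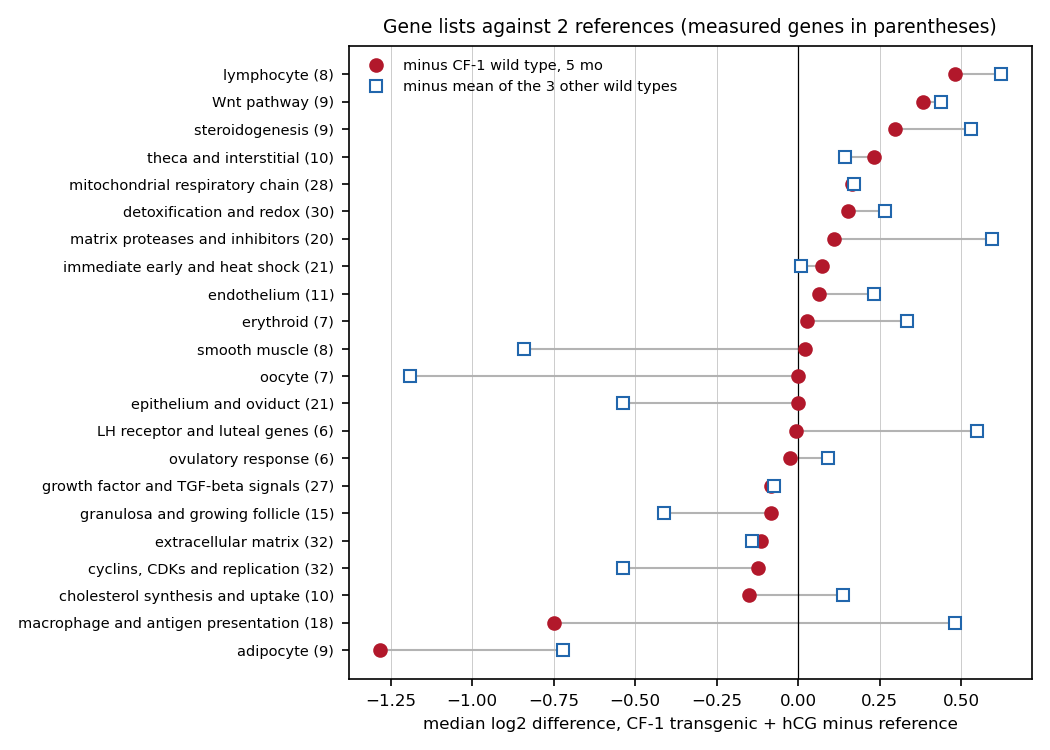
Median log2 difference of each gene list between the hCG-treated ovary and 2 references, the CF-1 wild type, 5 months (red) and the mean of the other wild types (blue squares), with the number of measured genes in parentheses. The macrophage list lies at -0.75 and 0.48 for these references and the oocyte list at 0 and -1.19. The adipocyte list is below 0 for both, and the lymphocyte, Wnt and steroidogenesis lists above 0 for both.

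Of the lists with more than 1 measured gene, the adipocyte list had the lowest median. Of 9 measured adipocyte genes, 7 were at least 1.5-fold lower than in the CF-1 wild type and 0 higher, with a median of -1.28. Of all probe sets tested, 17.8% were lower and 18.4% higher by that measure. Fabp4, the fatty acid binding protein of fat cells, read 569 units against 1755, 3.09-fold lower. Adipoq, adiponectin, read 764 against 2037, and Car3, carbonic anhydrase 3, 498 against 1449. The CF-1 wild type at 2 months read 418, 613 and 481 for these 3 genes, like the hCG-treated ovary, and the hybrid wild type at 5 months 2349, 2156 and 1401. Against the mean of the other wild types the median was -0.72. The untreated transgenic ovaries were low as well. The mean floored log2 level of the list was 9.894 to 9.9996 in these ovaries, 9.95 with hCG and 11.01 in the CF-1 wild type. It was 9.938 to 11.0008 in the other wild types. The median was -0.98 in the tumour against the same CF-1 wild type. In the hybrid luteoma it was -1.03 against the hybrid wild type at 5 months. The labels do not say how the ovaries were trimmed, and the part of adhering fat was not tested.

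Cyp2e1, the ethanol-oxidising P450, followed the fat genes. It was under the floor with hCG and at 832 units in the CF-1 wild type, at least 4.53-fold lower, with 1319 in the hybrid wild type at 5 months and a value under the floor in the CF-1 wild type at 2 months. An unnamed chip B probe set, of the 30 on the lower side, read 788 against 5065, with 829 in the CF-1 wild type at 2 months and 6504 in the hybrid at 5 months.

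Antibody genes had no common direction within the pair. Igha, the IgA heavy chain, read 2679 units against 1698 and 699 to 1334 in the other wild types. Jchain, which links IgA molecules, read 1469 against 834 and 336 to 542. Both were the highest of the 9 arrays. Cd3e, a T cell receptor subunit, read 866 against 621 and 581 to 646. Ighm, the IgM heavy chain, read 1558 against 1989, and Iglc1, a light chain, 303 against 628. The other wild types read lower than the hCG-treated ovary for both, at 727 to 956 and 140 to 184. Cd79b, of the B cell receptor, read 252 against 594 and 296 to 604. Of 8 measured lymphocyte genes 3 were higher and 2 lower at 1.5-fold, with a median of 0.48. Camp, a neutrophil granule peptide, read 1149 against 335.

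Red cell genes other than Alas2 gave no common direction. Hba-a1, alpha globin, read 38313 units against 16855 and 16996 to 18576 in the other wild types, and 47516 in the cystic hybrid ovary. Hbb-b2, on a probe set that can cross-read other beta globins, read 18485 against 12491 and 7685 to 8538. Fech, the last enzyme of heme synthesis and not on the list, read 744 against a value under the floor, at least 4.05-fold higher, and 413 to 554 in the other wild types. Slc4a1, the anion exchanger of the red cell, read 618 against 1264, and Klf1, the erythroid transcription factor, 1040 against 1022. Of 7 measured erythroid genes 2 were higher and 1 lower at 1.5-fold.

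Vessel genes other than Selp had no common direction, and no other member of the list passed 3-fold. Eng read 8272 units against 6480, with 3315 to 6361 in the other wild types. Cdh5, the endothelial cadherin, read 1235 against 1037 and 893 to 1012. Tie1 read 822 against 1619 and 336 to 1169. Kdr, a VEGF receptor, read 1300 against 1990 but 922 to 1168 in the other wild types. The median of 11 genes was 0.06, with 1 higher and 2 lower at 1.5-fold. Procr, the endothelial protein C receptor, was not on the list and read 1202 against 400, with 186 to 1032 in the other wild types and 950 to 2256 in the untreated transgenic ovaries.

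Matrix genes as a list were near the background, though some collagen and laminin genes were lower. Col1a2, a chain of type I collagen, was lower on each of its 3 probe sets, at 1351 units against 3943, 1786 against 3363 and 860 against 1450. Fbln1, a matrix glycoprotein, read 972 against 2503 and 2309 to 2544. Lamc1, a laminin chain, read 670 against 1406 and 1387 to 1751. Col3a1, of type III collagen, read 12614 against 13025 on its bright probe set. Of 32 measured matrix genes 5 were higher and 8 lower at 1.5-fold, where 18.4% and 17.8% of all probe sets were, and the median was -0.11. On the brightest probe set of the gene 0 passed 3-fold. Lama4, a laminin chain of vessels, read 375 against a value under the floor.

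Tnc, tenascin C, a matrix protein of remodelling tissue, stood against this. It read 8058 units against 2748, 2299 to 4057 in the other wild types and 327 to 2476 in the untreated transgenic ovaries, the highest of the 9, at 2.93-fold. Lum, lumican, was also the highest of the 9, at 8331 against 6471. Among proteases and inhibitors, Ctsl, cathepsin L, read 25736 against 13992, Ctsh 7455 against 5088 and Mmp14, a membrane collagenase, 2969 against 1668. Their list of 20 had 4 higher and 3 lower at 1.5-fold and a median of 0.11, which was -0.01 with quantile normalisation and -0.03 with loess. Above all 4 wild types lay 9 of these genes, 45%, where 22.2% of all probe sets did.

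Genes of cell division differed little within the pair and were lower against the other wild types. Of 32 measured genes, 3 were higher and 6 lower at 1.5-fold than in the CF-1 wild type, with a median of -0.12. These are 9.4% and 18.8%, where 18.4% and 17.8% of all probe sets were. Ccnd2, described above, was the member past 3-fold, and it was higher. Mki67, a mark of cycling cells, read 827 units against 1130 and 1937 to 2395 in the other wild types. Mcm7, of the replication helicase, read 1146 against 1908 and 2555 to 3093. Ccna2 read 580 against 776 and 1203 to 1601. Below all 4 wild types lay 13 of the 32, 40.6% where 23.9% of all probe sets did, and the median against the other wild types was -0.54. The CF-1 wild type was itself the lowest wild type for 20 of the 32. Cdkn1a, the p21 inhibitor, was under the floor on a probe set that read 641 in the CF-1 wild type. On another it read 372 against 649, and the other wild types read lower than both there, at -182 to 92.0.

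Of the Wnt pathway genes, Frzb passed 3-fold, on a dim probe set. Frzb, a secreted Wnt inhibitor, read 574 units against a value under the floor, at least 3.12-fold higher, with 201 to 298 in the other wild types and 208 to 473 in the untreated transgenic ovaries. Sfrp1, of the same family, read 1715 against 1235 and 335 to 907, the highest of the 9. Sfrp2, also of that family, read 240 against a value under the floor, with 240 to 388 in the other wild types. Wnt10b read 826 against 363 and 256 to 447. Wnt4, a ligand of the luteal and fetal ovary, read 726 against 745 on its brighter probe set and 752 against 373 on a second. Of 9 measured genes 3 were higher and 0 lower at 1.5-fold, where 18.4% and 17.8% of all probe sets were. The median was 0.38. The receptors Fzd7 and Fzd8, outside the list, read 591 against a value under the floor, and 330 against 1192.

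Genes of redox and detoxification were near wild type within the pair, with a median of 0.15 over 30 genes. Gsta3, a glutathione transferase that also isomerises steroids, read 5043 units against 2052 and 616 to 823 in the other wild types, and 6178 in the hybrid luteoma. Aldh1a1, a retinal dehydrogenase, read 28349 against 16782 and 12227 to 14362, the highest of the 9. Gpx3, a secreted peroxidase, read 34202 against 18386, and Prdx1 36166 against 21678. Both are bright genes of chip B, where the top values of the pair differ as given above. Mgst3, a microsomal transferase, read 904 against 1748 and 1894 to 2494. Above all 4 wild types lay 11 of the 30, 36.7%, where 22.2% of all probe sets did. The median of this list was 0.04 with quantile normalisation and 0.02 with loess.

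Growth factor genes had no common direction. Igfbp4, which binds IGF, was lower on both of its probe sets, at 1203 units against 4156 and 1322 against 3419, but the other wild types read 901 to 1652 and 1389 to 1524. Gdnf read 640 against 258 and 362 to 698. Of 27 measured genes 5 were higher and 6 lower at 1.5-fold, with a median of -0.08. Cish, a suppressor of cytokine signals that prolactin and growth hormone induce, was not on the list and read 2939 against 826, 3.56-fold higher. The other wild types read 839 to 2260 and the untreated transgenic ovaries 389 to 2360.

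The medians of the remaining lists with more than 1 measured gene stood near 0. Respiratory chain genes had a median of 0.16 over 28 genes, with 4 higher and 0 lower at 1.5-fold and Uqcrc2, of complex III, at 3633 units against 1538 and 2722 to 3116. Immediate early and heat shock genes had a median of 0.07 over 21. Theca and interstitial genes had 0.23 over 10, and the ovulatory response -0.03 over 6, with Cebpb, a factor LH induces, at 3175 against 1830 and 1944 to 2826. Of the pituitary genes Gh alone was tested, under the floor with hCG and at 722 units in the CF-1 wild type. It followed the profile of 3 arrays described above. Its floored log2 level was 9.50 in the CF-1 wild type at 5 months, 9.64 in the tumour, 9.82 in the hybrid luteoma and 8.18 to 8.32 elsewhere.

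Beside these values stand those of the untreated CF-1 transgenic ovary, the granulosa cell tumour, against the same wild-type array. Because the wild-type array is shared, the comparisons are set side by side only. By the same rule the tumour had 94 probe sets higher and 189 lower, 1.47% and 2.95%. Steroidogenesis had a median of -1.20 in the tumour and 0.30 in the hCG-treated ovary, luteal genes -1.56 and -0.01, cholesterol synthesis -1.48 and -0.15, and granulosa genes 0.69 and -0.08. The tumour read 12028 units for Inhba and 16047 for Hsd17b1, against 2909 and 2547 with hCG.

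The hybrid luteoma shares no array with this pair when it is set against the hybrid wild type at 5 months, where 137 probe sets were higher and 109 lower, 2.14% and 1.7%. Of the probe sets higher with hCG, 4 were also higher in the hybrid luteoma, 3.31% of the former list and 2.92% of the latter, and 14 were lower there, 11.6% and 12.8%. Of those lower with hCG, 6 were also lower in the luteoma, 5.36% and 5.50%, and 15 were higher, 13.4% and 10.9%. Opposite directions were thus the more frequent. The profile of 3 arrays lies on the wild-type side in the hCG comparison and on the luteoma side in the hybrid one, and its part in the overlap was not tested.

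Values of named genes in the 2 luteomas were alike for some genes and not for others. Inhbb read 1331 units with hCG and 711 in the hybrid luteoma, Alas2 1576 and 2081, Gsta3 5043 and 6178, Cyp17a1 8023 and 9578, and Ptgfr 15676 and 11299. Hsd3b1 read 39328 and 1664, and the hybrid wild type at 5 months 3612. Wnt4 read 4550 in the hybrid luteoma on the probe set that read 752 with hCG. Tnc read 8058 and 2061.

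Promoters of the genes furthest from the wild type and of the ovarian genes were searched on both strands for exact matches to 3 motifs. The sequences are RefSeq promoters of assembly GRCm38.p6, 250 bases before to 50 after a start site. The site of NR5A1, the nuclear receptor of steroid genes, was searched as AAGGTCA and was in 4.72% of all 32851 promoters. The cAMP response element, which the LH receptor's second messenger acts on, was searched as TGACGTCA and was in 1.79%. The GATA site was searched as TGATAA and was in 9.05%. No motif overlaps another in the promoters shown. Of the 15 genes furthest on either side, 12 had a promoter in the table and the others were not searched. Of 13 promoters of the 12 genes above, 1 held the NR5A1 site, that of Alas2. Of 13 promoters of the 12 below, 1 held the NR5A1 site, that of Cd300c2, and 1 the cAMP response element, that of Hps4. Of 9 promoters of the 7 ovarian genes searched, of 15 measured, 2 held the GATA site, both of Nr5a2. These matches are descriptions, and other letters at a site were not searched. The promoter of Alas2, chosen as the gene high in all transgenic ovaries, lies at chrX:150547167-150547466 on the plus strand, and that of Hps4 at chr5:112342845-112343144 on the plus strand. Capitals mark the NR5A1 site at position -246 in the former and the cAMP response element at position -67 in the latter, counted from the start site to the first base of the match.
Alas2: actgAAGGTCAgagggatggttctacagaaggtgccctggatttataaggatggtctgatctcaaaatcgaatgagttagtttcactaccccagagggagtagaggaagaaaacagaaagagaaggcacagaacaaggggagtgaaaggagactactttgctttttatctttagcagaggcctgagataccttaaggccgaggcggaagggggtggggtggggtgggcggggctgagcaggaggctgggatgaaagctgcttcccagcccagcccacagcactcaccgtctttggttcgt
Hps4: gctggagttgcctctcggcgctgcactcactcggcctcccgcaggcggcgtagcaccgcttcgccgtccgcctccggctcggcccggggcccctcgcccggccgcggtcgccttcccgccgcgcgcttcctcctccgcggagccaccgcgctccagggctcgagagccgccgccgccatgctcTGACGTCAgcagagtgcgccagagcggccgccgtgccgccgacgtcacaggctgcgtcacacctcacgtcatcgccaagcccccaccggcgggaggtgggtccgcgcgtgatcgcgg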

How the data were processed

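RNA of mouse ovaries was measured on 2 oligonucleotide chip types, 1 array of each for each of 9 conditions, grouped by the labels. The deposited values are intensity readings on a linear scale, and 13.6% to 30.1% of an array's values lie below 0. The sources used here do not say how the authors computed and scaled these intensity values. The number of arrays, 1 a side, limits the precision, and no significance test was run.

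Arrays were scaled within chip type to the same trimmed mean (percentiles 2 to 98). The floor is a median over the 9 arrays, taken for each array from whichever is larger, its 25th percentile or the size of its 5th. Of 6584 and 6595 probe sets, 76 a chip were left out (55 controls and 21 present on both chips), as were those with any of 3 missing values. Tested were those at 2 floors or more on at least 2 arrays. Printed levels are scaled and not floored. Names come from the platform annotation, of whose 7561 entries with 1 symbol 7544 were updated by Entrez number, and 224 entries with several symbols stay unnamed. Lists used each gene's brightest probe set.

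Named were the 15 genes furthest on either side, list members past 3-fold or the furthest 3 of a list, genes past 3-fold on several probe sets, a set of ovarian genes, and genes beyond all other arrays. Further genes, such as Wfdc18, Cish, Procr, Camp, Fech, Fzd7 and Fzd8, were named after their values were seen. Members and lists were chosen with earlier results of these data known. Alternatives to the floor, scaling, filter, reference and fold were computed, and the size rule was tested on simulated data. Python 3.11.15, numpy 2.4.6, pandas 2.3.3, statsmodels 0.14.6 and matplotlib 3.10.9 were used.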

Additional observations from a re-analysis of the deposited data

How the results depend on the processing

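With 1 array a side no count has an error. The 121 higher and 112 lower probe sets became 187 higher with a floor of 20 units, 37 and 55 with the floor doubled, and 14 and 29 when detection on all 9 arrays was required. They became 473 and 447 at 2-fold, and 21 and 14 at 5-fold. Chip A alone gave 73 lower, and chip B alone 31 and 39. Another reference gave fewer: 60 and 42 against the mean of the CF-1 wild types, 49 and 42 against the mean of 4 wild types, and 52 and 51 against the mean of the other 3, an alternative chosen after seeing the data. Of those beyond all wild types, the 26 higher became 7 with the floor doubled and 1 with detection on all arrays, and the 29 lower became 69 with a floor of 20 units, 14 and 10. Other scalings, loess included, stayed within 1.5 times of either count. Without scaling the median of all log2 differences was 0.11. Signs turned for Cd300c2 (0.20 against the mean of 4 wild types, 0.997 against the other 3), Ctss (0.12 and 0.69), and, against the other 3, Dhcr7 (0.0937), H2-Ab1 (0.19) and Col4a4 (0.00859). Of genes under 3-fold, Fst (0.15 to -0.37) and Scarb1 (-0.67 to 0.14) turned against the other 3, and Fst also against the mean of 4. Of 22 list medians, 19 kept their sign with quantile normalisation and 17 with loess. Against the other 3, 16 kept it, and 15 against the mean of 4. Against the other 3 the macrophage (-0.75 to 0.48), cholesterol (-0.15 to 0.14), luteal (-0.01 to 0.55), ovulatory (-0.03 to 0.09) and smooth muscle (0.02 to -0.84) lists turned and the oocyte list left 0, and against the mean of 4 the theca list also turned. The cause was not tested. No paired analysis was possible because each group has 1 sample per chip type, and for the same reason no replicate could be left out.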

Other observations

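A chip B probe set with no gene name was bright on the hCG-treated array alone. It read 8633 units there and -101 to 62.5 on the other 8 arrays, 29.7 times the floor. It was not among the probe sets tested, since it reached the detection limit on 1 array, and the value has no replicate.

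Some probe sets were bright in the CF-1 wild types and dim in the hybrid ones. Ifi202b, an interferon-inducible gene, read 2113 and 2367 units in the CF-1 wild types, 1276 with hCG and 365 and 383 in the hybrid wild types. An unnamed chip A probe set read 15074 and 23250 in the CF-1 wild types, 6262 with hCG, 3302 in the tumour and 2105 to 2743 in the 4 hybrid conditions. An unnamed chip B probe set read 13660 and 14551, 2696, 1460 and 95.0 to 1796 in the same order. The CF-1 cystic ovary read 14761 and 14812 on the latter probe sets. The hCG-treated ovary thus lay between the CF-1 wild types and the hybrids on both, while the tumour lay above the hybrids on the chip A probe set and within their range on the chip B one. The cause was not tested.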
